A study of Mus musculus with 16 samples.

Results

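The nuclear genes for the respiratory chain and the ATP synthase were followed in mouse CD4+ T cells that lack most of their own microRNAs and were given back a single miRNA as a mimic. Members were chosen by symbol: Ndufa, Ndufb, Ndufc, Ndufs or Ndufv followed by a digit, Sdha to Sdhd, and symbols that start with Uqcr, Cox4, Cox5, Cox6, Cox7, Cox8 or Atp5. Each also had to hold 10 or more reads in at least 4 of the 16 libraries, and processed pseudogenes (names with -ps) were dropped. Of 23337 symbols in the count files, 85 matched by name and 77 were members: 35 of complex I, 4 of complex II, 8 of complex III, 13 of complex IV and 17 of complex V, the ATP synthase. All 77 passed the filter on low counts of the test. The matching by name brought in a few genes that encode no subunit, namely Cox4nb (now Emc8, of an endoplasmic reticulum complex), Atp5sl (now Dmac2, an assembly factor) and Atp5s, and also Cox7a2l, which acts in joining complexes into supercomplexes. Ndufa4 was counted with complex I by its name, although its protein is now assigned to complex IV.

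Oxidative phosphorylation couples electron flow to ATP production in the inner mitochondrial membrane. Complexes I and II feed electrons from NADH and succinate to ubiquinone, complex III passes them to cytochrome c, complex IV hands them to oxygen, and complexes I, III and IV pump protons. The ATP synthase lets the protons flow back through its membrane ring and turns ADP into ATP, and T cells enlarge this system when they are activated. All subunits studied here are encoded in the nucleus; the subunits encoded in mitochondrial DNA were not analysed here.

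The cells came from C57BL/6 mice of the genotype Dgcr8f/f Tbet-/- CD4-cre, whose age is not given in the sources used here. Dgcr8 is needed to process most miRNAs, Tbet (Tbx21) is the transcription factor of T helper 1 cells, Cd4-driven Cre acts in the T cell lineage, and cells were sorted for the YFP reporter that Cre switches on. Spleen and lymph node CD4+ cells were stimulated through CD3 and CD28 for 3 days with 10 U/ml IL-4 and rested for 2 days with 20 U/ml IL-2, and 500 nM of miR-23a, miR-24, miR-27a or control mimic was electroporated on day 1 and again on day 4. There were 4 libraries per mimic, and all 4 groups carry the same deletions, so the control group is not a wild type. The series text gives biological triplicates as the minimum, and no label ties a library to a mouse, so the p-values measure the spread between these libraries.

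The miRNAs belong to one cluster but differ in their seed, bases 2 to 8, which pairs with 3′ untranslated regions (3′ UTRs) of target transcripts. They are shown because the members that departed from the rest hold matches to one of them. The sequences are RefSeq's for GRCm38.p6, with the seed in capitals; the labels do not give the arm, and the 3p arm, the guide strand usually named without an arm, was taken for each.
miR-23a-3p: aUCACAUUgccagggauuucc
miR-24-3p: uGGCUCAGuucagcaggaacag
miR-27a-3p: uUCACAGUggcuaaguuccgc

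The sites of miR-23a in the 4 members that were lowest with its mimic are printed next, as RNA-sense DNA with the match in capitals and up to 9 bases of context on each side. For each gene they are taken from the protein-coding GENCODE M21 transcript with the longest annotated 3′ UTR, on GRCm38 (mm10). An 8mer pairs with seed bases 2 to 8 and is followed by an A, a 7mer-m8 lacks the A, and a 7mer-A1 lacks the pair at base 8. Ndufa3 has 1 8mer at chr7:3620141-3620148 on the plus strand, 49 bases into a 3′ UTR of 235 bases. Uqcrfs1 has 1 8mer at chr13:30540590-30540597 (minus strand), Ndufs4 has a 7mer-m8 at each of chr13:114288661-114288667 and chr13:114288517-114288523 (minus strand), and Atp5f1 has 1 7mer-A1 at chr3:105942927-105942933 (minus strand).
Ndufa3: tccaataaaAATGTGAAaactaataa
Uqcrfs1: gcaaacattAATGTGAAgtaattgaa
Ndufs4, upstream site: ctcctaataAATGTGAcctttaaac
Ndufs4, downstream site: gagtttaccAATGTGAgtgcctgga
Atp5f1: aactagtatATGTGAAgaactcttt

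Reads assigned to genes ranged from 2120408 to 13714841 in 15 libraries, while control replicate 1 held 51474. In that library 26 of the 77 members had no read, 1 read was worth 16.3 CPM (the normalised read count, scaled to library size), and 3 reads 48.8 CPM. The ribosomal RNA transcript Rn45s took 0.300% to 19.1% of gene reads. T cell markers were all measured, with a summed level of 3682 to 4486 CPM as group means, against 9.58 to 16.2 CPM for B cell markers and 9.19 to 14.7 CPM for myeloid markers; Cd209a, Ncr1 and the globin genes Hba-a1, Hba-a2, Hbb-b1 and Hbb-b2 had no read. Tbx21 averaged 0.843 to 2.62 CPM. Dgcr8 averaged 45.2 to 57.3 CPM, and since the deleted part of the gene is not given in the sources used here, this does not check the deletion.

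Levels between genes were compared per kilobase of transcript over the 15 deeper libraries. Atp5b, the catalytic beta subunit of the ATP synthase, stood highest at 933 ± 279 CPM per kilobase (SD, n = 15), and its partner in the catalytic head, the alpha subunit Atp5a1, reached 152 ± 27.5. The next level below Atp5b was that of the gamma subunit, Atp5c1, at 175 ± 35.5, so the spreads of Atp5b and the rest were apart while Atp5c1, Atp5h and Atp5a1 lay within their spreads of each other. By complex, the median member had 23.6 CPM per kilobase in complex I, 33.7 in complex II, 39.8 in complex III, 60.1 in complex IV and 71.4 in complex V. Complex I held the lower levels although its highest member, Ndufa4, had 107 ± 33.2. The members with a level under 5 CPM per kilobase were Atp5s, Cox6b2, Ndufb2 and Atp5sl. These levels depend on the length taken, the median of annotated protein-coding transcripts. That length was 2413 bases for Ndufb2 and 2675.5 bases for Atp5g1, with longest 3′ UTRs of 4012 and 4252 bases. The form in use was not measured, so the places of these 2 members are less certain.

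**Figure D1:**
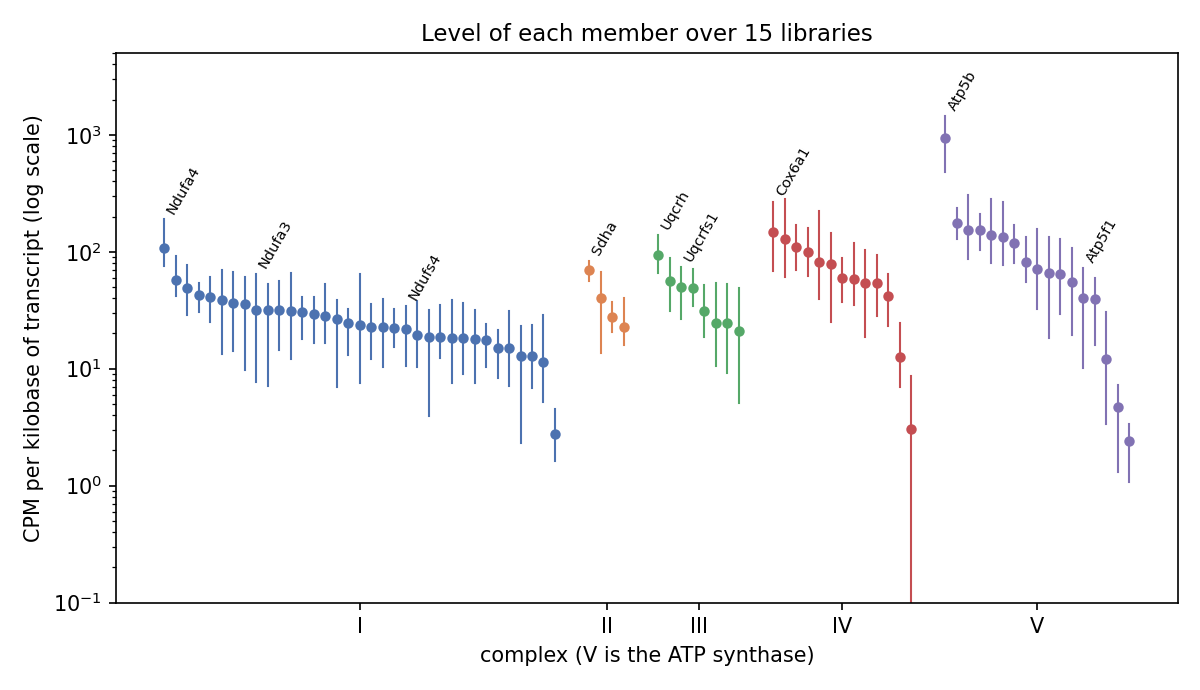
Level of each of the 77 members in CPM per kilobase of transcript (log scale) over the 15 libraries other than control replicate 1, by complex and in falling order. Points are means and lines run from the lowest to the highest library; the line of Cox6b2, which had no read in 1 library, is drawn to the axis. Atp5b stands highest and the members of complex I lie lowest by their median.

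Several alternative forms of complex IV subunits fell short of the read minimum, and so did Ndufa4l2, a relative of Ndufa4. Cox4i2 had 53 reads over all libraries and 10 or more in only 1, Cox7a1 had 60 reads and at most 9 in a library, and Cox6a2, Cox7b2, Cox8b, Cox8c and Ndufa4l2 had 0 to 12 reads in all. Their widely expressed counterparts Cox4i1, Cox6a1, Cox7a2 and Cox8a were members, at 78.2, 146, 58.2 and 129 CPM per kilobase. Cox6b2, the testis form of a complex IV subunit, was the member closest to the minimum, with 10 or more reads in 8 libraries. Ndufs5, a complex I subunit, is listed with 0 reads in every library, which need not mean that it was not expressed. Reads without a unique alignment, 27.9% to 44.8% of all lines' reads, were not assigned to genes. Whether reads of Ndufs5 were among them was not tested. The ring of the ATP synthase is built from the c subunit, whose identical mature protein comes from Atp5g1, Atp5g2 and Atp5g3. Atp5g3 gave 68.6% ± 14.3 of their summed CPM, not scaled to transcript length, in control cells (SD, n = 3, without control replicate 1). The share was 59.7% ± 14.2 in miR-23a cells, 55.6% ± 15.03 in miR-24 cells and 47.1% ± 18.2 in miR-27a cells (n = 4 each). Of the 50-base stretches of the transcripts, 87.4% of those of Atp5g2 and 10.6% of those of Atp5g1 also occur in other genes, and 0 of those of Atp5g3, so the counts behind these shares are less certain.

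The first question was which of these transcripts differed between miR-23a and control cells. The test called 3 members, Ndufa3, Ndufs4 and Atp5f1, and all 3 fell. Ndufa3 encodes an accessory subunit in the membrane arm of complex I. It had 3.94, 4.55, 3.34 and 3.74 CPM in the 4 miR-23a libraries, and 0, 17.5, 20.9 and 14.6 CPM in control replicates 1 to 4. All 3 deep control libraries lay above all miR-23a libraries, and the groups overlapped through control replicate 1, where 0 reads allow up to 48.8 CPM. The log2 fold change was -2.12 ± 0.34 (SE) with an adjusted p of 0.00743 in edgeR's quasi-likelihood test, and -2.19 without control replicate 1.

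Ndufs4 encodes an accessory subunit of the NADH-oxidising arm of complex I, whose loss in mice is used as a model of Leigh syndrome. It had 24.0, 22.1, 18.3 and 17.9 CPM with miR-23a and 32.6, 43.3, 58.6 and 49.2 CPM in control libraries. The groups did not overlap, but the lowest control value, in control replicate 1, rests on 2 reads. The means were 20.6 ± 2.98 and 45.9 ± 10.9 CPM (SD, n = 4 each). The log2 fold change was -1.25 ± 0.23, with an adjusted p of 0.0347 in edgeR's quasi-likelihood test. This call was the least firm of them: leaving out control replicate 3 or 4 or any single miR-23a library ended it, and the highest adjusted p over all alternatives was 0.254.

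Atp5f1 encodes subunit b of the ATP synthase, part of the stalk that holds the catalytic head still. It had 16.4, 17.5, 23.4 and 31.4 CPM with miR-23a and 48.8, 62.7, 90.0 and 116 CPM with the control mimic. The highest miR-23a library lay below the lowest control library, which was control replicate 1 with 3 reads. The log2 fold change was -1.94 ± 0.28 with an adjusted p of 0.00582 in edgeR's quasi-likelihood test. Of the 50-base stretches of its transcript, 23.2% also occur in 2 pseudogenes, and its exons share 337 bases with the exons of Wdr77 on the other strand, so part of its count is less certain. The transcripts of Ndufa3, Ndufs4 and Uqcrfs1 share no 50-base stretch with other annotated genes.

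The 3 calls, all lower, stand against 0.131% of all 12952 genes tested (17 genes, all lower). These 3 genes had been named before the test, with earlier results of these data known. Their number beside that share is therefore a description and no independent support. A fit of the 2 groups alone called 0 of the 77, and leaving out control replicate 3 or miR-23a replicate 3 left Atp5f1 as the 1 call. Over the 15 alternatives Ndufa3 was called in 12 (adjusted p up to 0.0927) and Atp5f1 in 14 (0.0583 in the 2 groups alone). Uqcrfs1, the Rieske iron-sulfur protein of complex III that takes electrons from ubiquinol, came next in size of change without passing the test. It had 39.6, 42.4, 36.4 and 49.7 CPM with miR-23a and 65.1, 56.3, 93.2 and 75.3 CPM with the control mimic, with no overlap. The value in control replicate 1 rests on 4 reads. The log2 fold change was -0.82 ± 0.22, with an adjusted p of 0.258 in edgeR's quasi-likelihood test. Members whose libraries did not overlap numbered 3 on the lower side, namely Ndufs4, Uqcrfs1 and Atp5f1, and 1 on the higher side, Ndufa11, where 2.02% and 3.18% of all genes did so. Ndufa11, an accessory subunit of complex I, had 12.2 to 15.9 CPM with miR-23a and 8.24, 8.83 and 6.55 CPM in control replicates 2 to 4; control replicate 1 had 0 reads, which allow up to 48.8 CPM, so its groups may overlap.

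**Figure D2:**
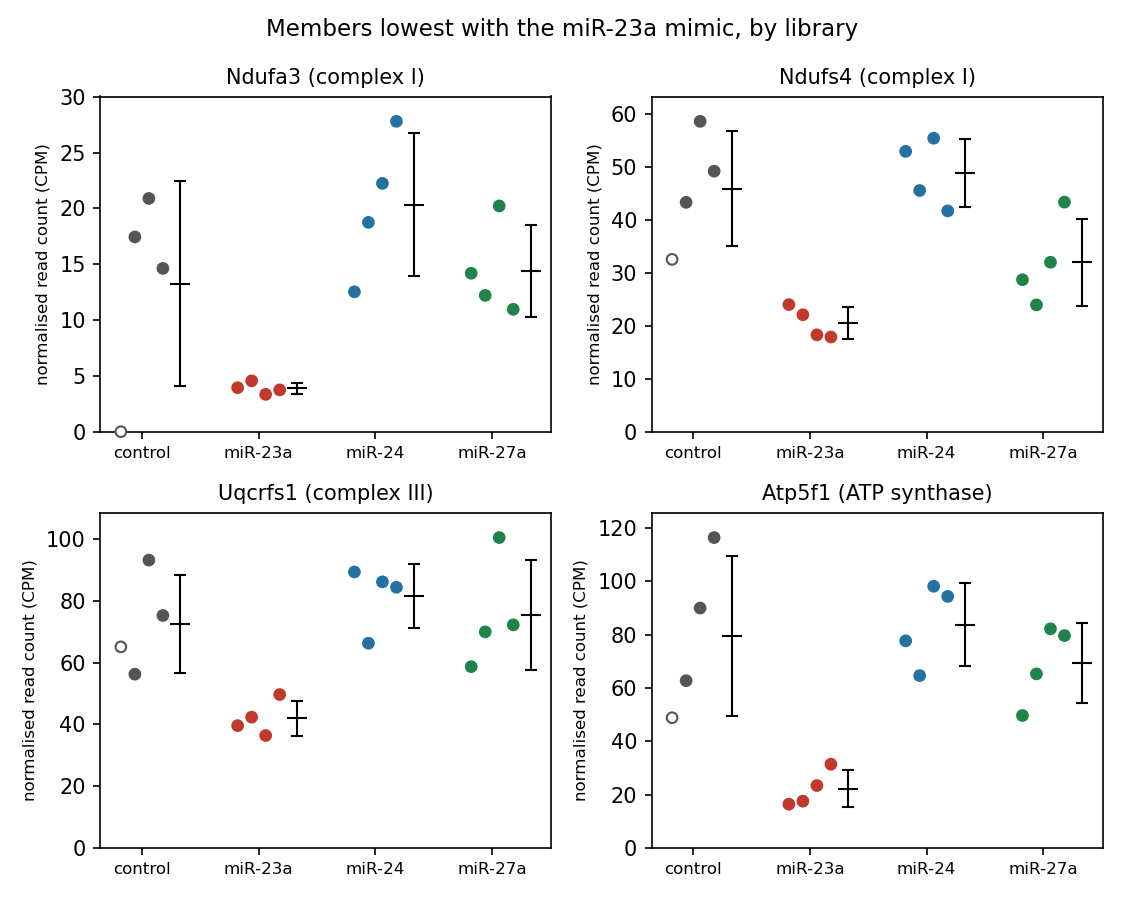
Normalised read count (CPM, from 0) of Ndufa3, Ndufs4, Uqcrfs1 and Atp5f1 in each of the 16 libraries, by mimic; the open symbol is the shallow control replicate 1, and bars are the mean ± SD of the 4 libraries. The miR-23a libraries lie below all libraries of the other groups for Atp5f1 and Uqcrfs1, below all but control replicate 1 for Ndufa3, and reach the lowest miR-27a library for Ndufs4.

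The remaining 73 members ran from -0.69 (Uqcrb) to 1.13 (Cox6b2) in log2 fold change with miR-23a, and their median was 0.16. The median over all 77 members was 0.11, over all genes tested 0.05, over 73 cytosolic ribosomal protein genes 0.07 and over 76 mitochondrial ribosomal protein genes 0.09. A positive fold change was seen for 45 of 77 members, against 53.8% of all genes. Both values rest on single libraries: the members' median was -0.076 with 35 positive without control replicate 2, -0.017 with 37 without miR-23a replicate 1, and 0.34 with 57 without control replicate 3. By complex the median was 0.16 for complex I, 0.20 for II, 0.02 for III, 0.23 for IV and -0.12 for V, where 5 of 17 members were positive. The summed level of complex V was 2368 ± 431 CPM with miR-23a and 2862 ± 463 CPM with the control mimic (SD, n = 4 each). That sum rests on Atp5b, which had 914, 1117, 1070 and 1823 CPM with miR-23a and 977, 2177, 1635 and 1755 CPM in control libraries. Without Atp5b the sums were 1137 ± 141 and 1226 ± 143 CPM, and both pairs of groups overlapped.

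**Figure D3:**
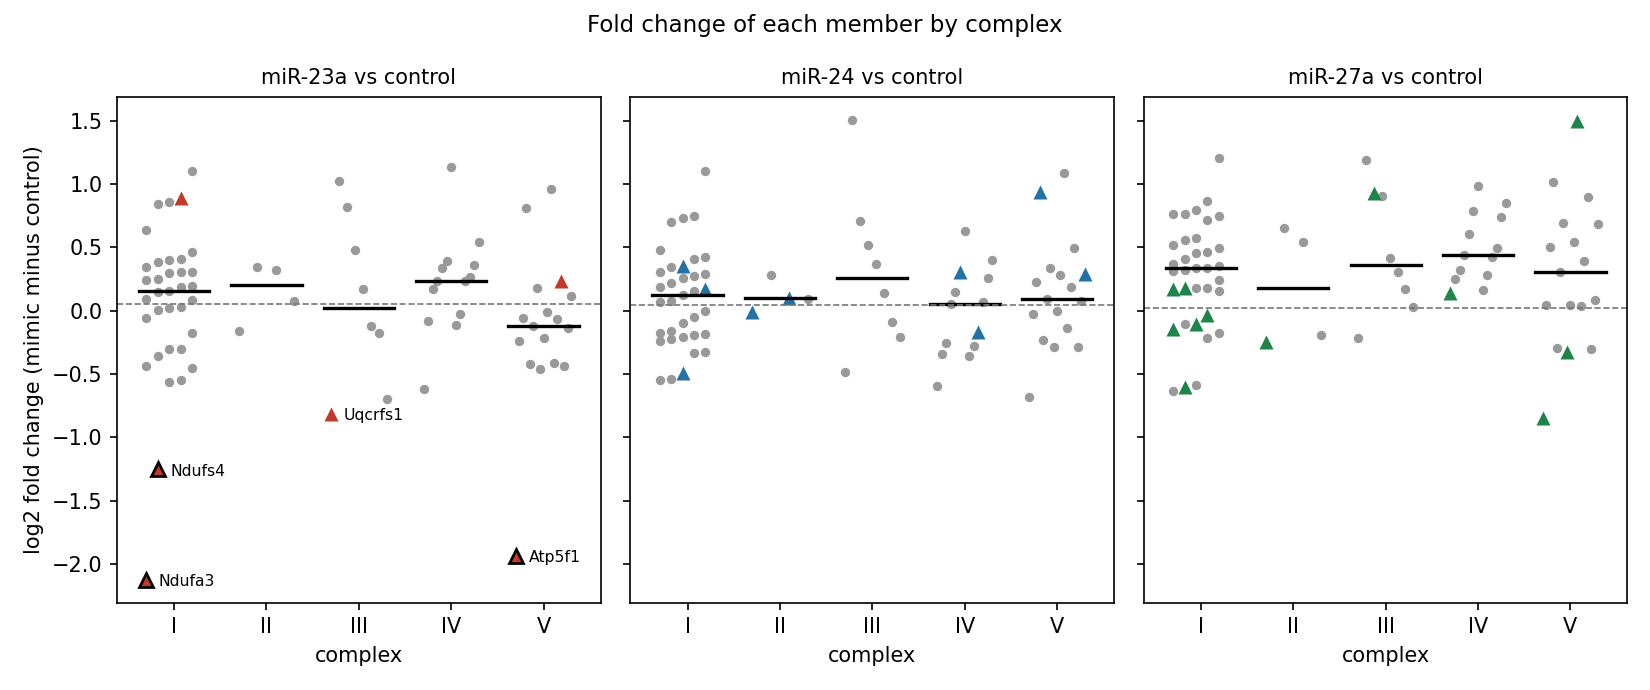
Log2 fold change of each of the 77 members against the control mimic, by complex and mimic. Triangles are members with a 3′ UTR site for the mimic given, circles the other members; a black outline marks an adjusted p under 0.05, black bars are the medians of the complexes and the dashed line is the median of all genes tested. With miR-23a, Ndufa3, Atp5f1, Ndufs4 and Uqcrfs1 lie below all other members and each holds a site, while Ndufv1 and Atp5g2 hold a site and lie above 0.

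Matches to the miR-23a seed were scarce among the members. They were found in the 3′ UTR of 6 of 77 members (7.79%), against 25.3% of the 12014 tested genes with a 3′ UTR to search. The members' 3′ UTRs had a median of 235 bases, against 1235.5 bases over those genes. The 4 members with the lowest fold changes of the 77 all held a match; the other 2 were Atp5g2, with a 7mer-A1 and a log2 fold change of 0.24, and Ndufv1, with a 7mer-m8 and 0.89. Ndufv1 encodes the subunit of complex I that binds NADH. It had 21.1, 9.56, 21.0 and 25.3 CPM with miR-23a and 0, 18.7, 9.82 and 3.50 CPM in control libraries, which overlapped. Over all searched genes the median log2 fold change was -0.29 for those with an 8mer, -0.11 with a 7mer-m8, -0.05 with a 7mer-A1 and 0.13 with no site. A match is a description of letters in the annotated transcript, and binding was not measured.

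With miR-24, none of the 77 members passed the test, against 0.849% of all genes. At an unadjusted p under 0.05, 5 members were higher (Ndufa11, Ndufb3, Ndufv1, Uqcr11 and Atp5g2) and 0 lower, where 7.41% of all genes were higher and 6.81% lower. DESeq2 and limma with sample weights also called 0 members. The median log2 fold change of the members was 0.09, against 0.05 for all genes tested, while the cytosolic ribosomal protein genes had 0.45. Leaving out 1 library at a time moved the members' median between 0.013 (without control replicate 2) and 0.35 (without control replicate 3). Uqcr11, a small subunit of complex III, had the highest value, 1.51 ± 0.64 (SE), with 2.51, 9.95, 21.7 and 15.9 CPM with miR-24 and 0, 2.84, 8.20 and 2.29 CPM with the control mimic. Its groups overlapped, and its adjusted p was 0.292 in edgeR's quasi-likelihood test. Of the departing members named above, the log2 fold change with miR-24 was 0.27 ± 0.32 for Ndufa3, -0.003 ± 0.23 for Ndufs4, 0.14 ± 0.22 for Uqcrfs1 and -0.03 ± 0.27 for Atp5f1.

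A miR-24 match was present in 9 of 77 members (11.7%), against 27.0% of all searched genes, and the median log2 fold change of these 9 was 0.17. The highest of them was Atp5g1, with 2 8mers, at 0.94 ± 0.60. Its 8mers begin 1482 and 3492 bases into the longest annotated 3′ UTR, of 4252 bases. The annotated transcripts of Atp5g1 have a median length of 2675.5 bases, so shorter forms may lack them. The lowest of the 9 members was Ndufa13 (also known as GRIM-19), a complex I subunit. It has an 8mer that begins 4 bases into its 3′ UTR of 41 bases. The match, in capitals, lies at chr8:69894210-69894217 on the minus strand and is shown because Ndufa13 had the highest fold change of any member between miR-27a and miR-24.
Ndufa13: ggcCTGAGCCAacgcacata

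Ndufa13 had 16.5, 18.9, 37.7 and 40.3 CPM with miR-24 and 16.3, 41.9, 45.0 and 38.4 CPM with the control mimic. Its log2 fold change was -0.49 ± 0.33 (adjusted p = 0.547, edgeR's quasi-likelihood test), and the groups overlapped. With miR-27a it had 84.5, 55.9, 88.0 and 43.7 CPM, all above the miR-24 libraries. That difference was 1.26 ± 0.32 with an adjusted p of 0.0698, so it was not called, while DESeq2 called it as the 1 member, where it called 2.29% of all genes it tested. Its exons share 375 of 1251 bases with Tssk6 on the opposite strand, which a count without strand could not separate. In the comparison of miR-27a with miR-24 the test called 0 members, against 0.88% of all genes, with 9 members higher and 2 lower at an unadjusted p under 0.05, where 7.31% and 5.95% of all genes were so. Limma with sample weights called 4 higher, the complex IV subunits Cox5a and Cox5b and the complex I subunits Ndufa13 and Ndufs8, and 2 lower, Ndufa3 and Ndufs4, where it called 7.79% of all genes in either direction.

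With miR-27a most members had a positive fold change, and 0 of 77 passed the test, against 0.17% of all genes. At an unadjusted p under 0.05, 11 members were higher and 2 lower, where 8.03% of all genes were higher and 6.31% lower. DESeq2 and limma with sample weights likewise called 0. The median log2 fold change was 0.34 over the 77 members, against 0.02 over all genes, 0.22 over the cytosolic and 0.13 over the mitochondrial ribosomal protein genes. Positive values were seen for 61 of 77 members, against 51.2% of all genes. Leaving out 1 library at a time moved the members' median between 0.19 (without control replicate 2) and 0.58 (without control replicate 3), and without control replicate 1 it was 0.33.

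The order of the complexes with miR-27a was IV, III, I, V and II by median log2 fold change, with 0.44, 0.36, 0.34, 0.31 and 0.18. In complex IV, cytochrome c oxidase, 13 of 13 members assigned by name were positive. These include Cox4nb, which encodes no subunit (0.14, and -0.052 with the replicate number as a block); without it and with Ndufa4 (-0.64), 12 of 13 were positive. Its summed level was 748, 794, 1061 and 554 CPM with miR-27a and 537, 487, 689 and 460 CPM with the control mimic. Replicate 3 was highest in both groups and miR-27a replicate 4 lay within the control range, so the groups overlapped; the means were 789 ± 209 and 543 ± 103 CPM (SD, n = 4 each). The sum of complex V was 3765 ± 624 CPM against 2862 ± 463 CPM, and that of complex III 352 ± 101 against 269 ± 75.8 CPM. Much of the complex V sum is Atp5b, with 2343 ± 462 against 1636 ± 497 CPM, which also enters the sum of all members. Without Atp5b the complex V sum was 1422 ± 188 against 1226 ± 143 CPM, and the groups overlapped. Complex II had 319 ± 26.3 against 319 ± 53.3 CPM. All members together summed to 6177 ± 1065 CPM with miR-27a, 5126 ± 650.2 CPM with miR-24, 4392 ± 534.5 CPM with miR-23a and 4733 ± 760.2 CPM with the control mimic. No label pairs the libraries, but by correlation the replicate numbers were taken to pair miR-27a and control. The lowest correlation was 0.198 over genes above 5 in mean log2-CPM, but 0.0607 over all genes tested. Within these pairs the miR-27a sum was the higher in 4 of 4 for complex I, complex IV and all members together. It was the higher in 3 of 4 for complexes III and V and in 2 of 4 for complex II. One of these pairs holds the shallow control replicate 1. These sums were not tested.

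**Figure D4:**
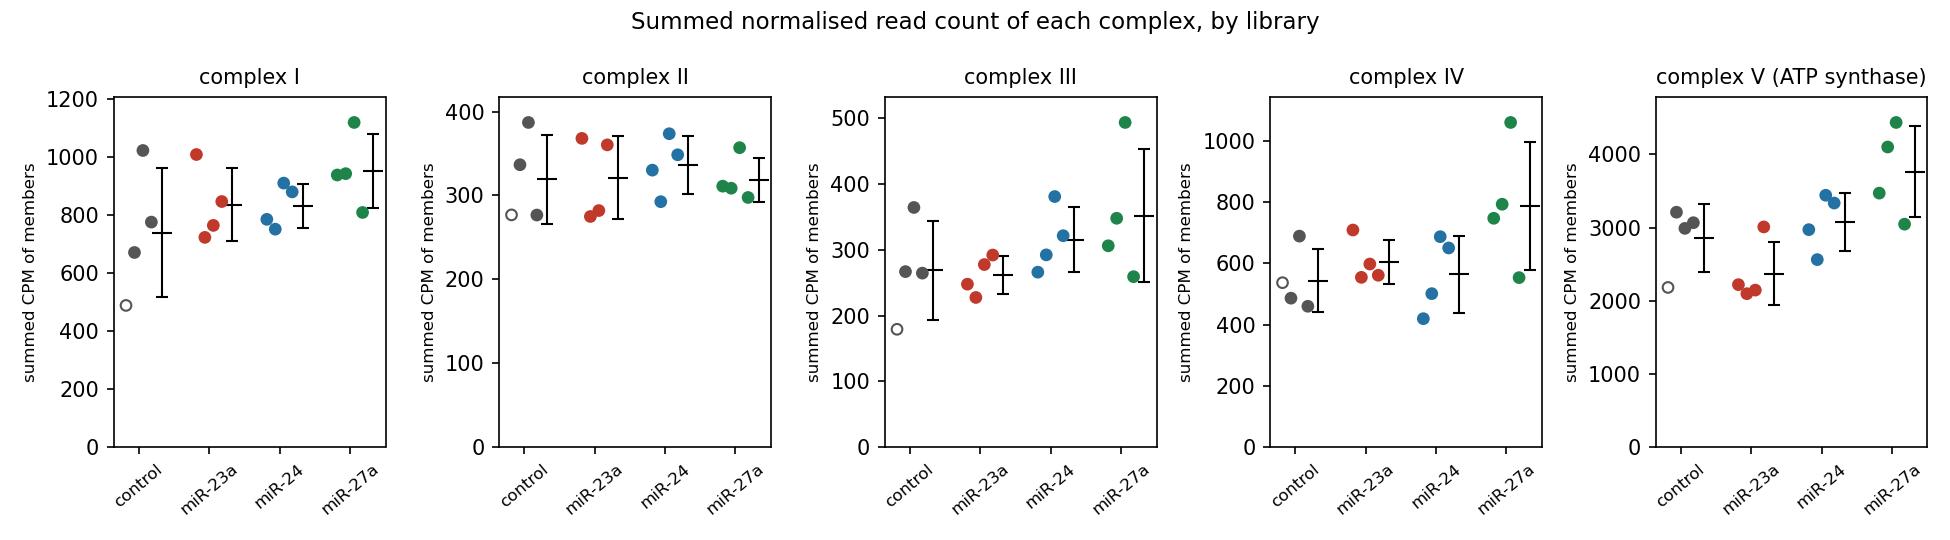
Summed normalised read count (CPM, from 0) of the members of each complex in each library, by mimic; the open symbol is control replicate 1 and bars are the mean ± SD of 4 libraries. The miR-27a group has the highest mean for complexes I, III, IV and V, its libraries overlap the control libraries in each, and complex II is level across the groups.

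Of single members with miR-27a, Sdhb, the iron-sulfur subunit of complex II, was the one whose libraries did not overlap the control, which 4.26% of all genes did on the higher side. It had 38.7, 42.3, 37.3 and 35.2 CPM with miR-27a and 32.6, 23.7, 29.3 and 24.7 CPM with the control mimic. The highest control value, in control replicate 1, rests on 2 reads. The log2 fold change was 0.55 ± 0.22 (adjusted p = 0.276, edgeR's quasi-likelihood test). Cox7a2, a subunit of complex IV, had 44.8, 50.3, 78.8 and 37.6 CPM with miR-27a and 16.3, 25.8, 43.3 and 29.3 CPM with the control mimic. Within each replicate number the miR-27a library was the higher, and the groups overlapped. The Cox7a2 value in control replicate 1, which enters 1 of these pairs, rests on 1 read. Its log2 fold change of 0.74 ± 0.29 had an adjusted p of 0.268 in edgeR's quasi-likelihood test; with the replicate number as a block it was 0.81 ± 0.22 with an adjusted p of 0.0496, the 1 member called so, where that fit called 3.07% of all genes in either direction.

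Among the ATP synthase members, Atp5o, the oligomycin-sensitivity subunit that links the stalk to the catalytic head, had 68.4, 91.6, 84.0 and 57.4 CPM with miR-27a and 65.1, 37.4, 52.2 and 45.7 CPM with the control mimic. Its log2 fold change was 0.69 ± 0.23 with an adjusted p of 0.193 in edgeR's quasi-likelihood test, the lowest among the members in this comparison. Of its 2259 exon bases, 287 are shared with Donson on the same strand and 356 with Gm15976 on the opposite strand. Of the 50-base stretches of its transcript, 19.1% also occur in a pseudogene, so part of its count is less certain. Atp5g1 had the highest fold change, 1.499 ± 0.62, with 46.8, 40.4, 82.2 and 14.997 CPM against 0, 25, 16.7 and 8.99 CPM. The spread within both groups was wide and they overlapped. The alpha subunit Atp5a1 had a log2 fold change of 0.05 ± 0.21. Members below 0 at an unadjusted p under 0.05 were Ndufa4, at -0.64 ± 0.29, and Ndufs4, at -0.61 ± 0.23.

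A match to the miR-27a seed was present in 12 of 77 members (15.6%), against 29.8% of all searched genes. The median log2 fold change was -0.07 for these 12 and 0.41 for the 65 members with no match, while over all searched genes it was -0.10 with a match and 0.09 without. Among these 12 the lowest were Atp5s, with an 8mer, at -0.85 ± 0.48, and Ndufs4, with a 7mer-m8; Ndufa4, which lay between them, holds no match. The flavoprotein subunit of complex II, Sdha, also holds an 8mer and had 178, 174, 190 and 179 CPM with miR-27a and 163, 230, 241 and 200 CPM with the control mimic. Its groups overlapped through control replicate 1, and its log2 fold change was -0.25 ± 0.17 (adjusted p = 0.522, edgeR's quasi-likelihood test). Atp5g1, the member highest with miR-27a, holds a 7mer-A1. Ndufs4 and Sdha carry matches for more than 1 of the mimics, and so do Atp5g1 and Cox4nb, for miR-24 and miR-27a. The log2 fold changes with these 2 mimics were 0.94 and 1.499 for Atp5g1 and 0.31 and 0.14 for Cox4nb. Of these members the miR-27a sites of Ndufs4 and Sdha are shown. They lie at chr13:114288730-114288736 and chr13:74322347-74322354, both on the minus strand, with the match in capitals.
Ndufs4, miR-27a site: ctctgcttgACTGTGActgaagtgt
Sdha, miR-27a site: ctacttctcACTGTGAAtgtaactag

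Other measures also varied beside the miR-27a result. Summed class II antigen presentation genes were 125 ± 74.8 CPM with miR-27a and 65.2 ± 31.8 CPM with the control mimic (SD, n = 4 each; all 8 genes measured, 40.5 to 220 against 29.9 to 107 CPM), and the T cell marker sum was 3825 ± 212 against 4486 ± 747 CPM (10 of 10 measured, 3678 to 4139 against 3598 to 5332 CPM). Rn45s had 61869 ± 39969.8 CPM with miR-27a (11886 to 106749) and 21162 ± 18458 CPM with the control mimic (3327 to 46069), so its spread was wide in both groups. The 6 B cell markers summed to 16.2 ± 6.97 CPM (8.92 to 25.5) against 9.58 ± 6.82 CPM (0 to 16.1), and the 7 myeloid markers to 12.4 ± 3.71 CPM (9.50 to 17.7) against 9.19 ± 7.10 CPM (0 to 15.2). The 8 dendritic cell markers, of which Cd209a had no read, summed to 16.2 ± 2.35 CPM (14.5 to 19.7) against 20.5 ± 7.73 CPM (14.2 to 31.5). The 6 CD8 and NK cell markers, of which Ncr1 had no read, summed to 23.1 ± 10.8 CPM (12.9 to 37.1) against 28.2 ± 22.5 CPM (0 to 54.7). Each of these sums overlapped between the groups. In control replicate 1, where 1 read is worth 16.3 CPM, the low sums of B cell, myeloid, dendritic, and CD8 and NK cell markers are not resolved. Their control means and lowest values are therefore less certain. The miR-27a libraries held 2120408 to 13714841 gene reads. The part of these in the members' levels was not tested. In bulk RNA, fewer cells of a type and less RNA per cell cannot be told apart.

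The mimics were also set against each other. The departing members differed there too, in comparisons that share the miR-23a libraries with the one above. Against miR-23a, 4 members were higher with miR-24, where 0.471% of all genes were called higher. Ndufa3 had 12.5, 18.8, 22.2 and 27.8 CPM with miR-24 (log2 fold change 2.39 ± 0.33, adjusted p = 0.00154, edgeR's quasi-likelihood test), and Atp5f1 had 77.7, 64.7, 98.2 and 94.4 CPM (1.91 ± 0.27, adjusted p = 0.00234). Ndufs4 had 53.0, 45.6, 55.5 and 41.7 CPM with miR-24 (1.25 ± 0.22, adjusted p = 0.00928, edgeR's quasi-likelihood test). Uqcrfs1 had 89.4, 66.3, 86.2 and 84.4 CPM with miR-24 (0.96 ± 0.21, adjusted p = 0.0341, edgeR's quasi-likelihood test). All miR-24 libraries lay above all miR-23a libraries for each of the 4 genes. The calls of Ndufa3, Atp5f1 and Ndufs4 held in all 15 alternatives, and that of Uqcrfs1 in 6, with adjusted p up to 0.133.

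Against miR-23a, 2 members were higher with miR-27a, where 0.386% of all genes were called higher. Atp5f1 had 49.7, 65.3, 82.2 and 79.7 CPM with miR-27a (1.64 ± 0.27, adjusted p = 0.0117, edgeR's quasi-likelihood test), and Ndufa3 had 14.2, 12.2, 20.2 and 10.965 CPM (1.91 ± 0.33, adjusted p = 0.0129). Both groups lay apart for each gene. Ndufs4 was intermediate with miR-27a, at 28.7, 24.0, 32.0 and 43.4 CPM, and its difference from miR-23a missed the threshold (0.65 ± 0.22, adjusted p = 0.259, edgeR's quasi-likelihood test). Uqcrfs1, with 58.7, 70.0, 101 and 72.2 CPM, lay above all miR-23a libraries at an adjusted p of 0.0969. By correlation the replicate numbers were taken to pair the libraries of these 2 groups, although no label does so. With the number as a block, 5 members were called higher, where that fit called 2.95% of all genes in either direction: Atp5f1, Ndufa3, Uqcrfs1 (adjusted p = 0.0272), Atp5b (0.0226) and Atp5l (0.0287). Atp5b had 2134, 2699, 2749 and 1790 CPM with miR-27a, and its lowest miR-27a library lay just under the highest miR-23a library, 1823 CPM. Atp5l, subunit g of the membrane part, had 86.1, 109, 152 and 59.99 CPM with miR-27a and 50.9, 49.2, 59.3 and 55.5 CPM with miR-23a, with no overlap; 68.5% of the 50-base stretches of its transcript also occur in other genes.

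Of the other genes of the pathway, taken from lists by role, few were called. Of 31 assembly factors tested, 22 genes for electron carriers, Cyc1 and ATP export, 16 of the citric acid cycle and 18 regulators of mitochondrial biogenesis, 0 passed the test against the control mimic with any of the 3 mimics, in either direction. Against miR-23a, miR-24 cells had less of 1 of them, Coq5, a methyltransferase of ubiquinone synthesis, where 0.625% of all genes were called lower, with a log2 fold change of -1.67 ± 0.38 and means of 8.85 and 28.3 CPM (adjusted p = 0.0383, edgeR's quasi-likelihood test). With miR-27a the citric acid cycle genes had a median log2 fold change of 0.21 (12 of 16 positive, 4 higher and 0 lower at an unadjusted p under 0.05, where 8.03% and 6.31% of all genes were so). The assembly factors had 0.04 (17 of 31 positive), the electron carrier list -0.0023 (11 of 22 positive) and the biogenesis regulators -0.014 (9 of 18 positive).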

How the data were processed

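The authors deposited 1 table of raw read counts per library, for 23337 gene symbols and 5 summary lines, which held 64.6% to 77.6% of all lines' reads and were left out. Per the submitters' processing notes, Bowtie2, TopHat, DESeq and the mm10 build were used; versions, the counter, the annotation and its strand setting are not given in the sources used here. Libraries were made from 1 ng of RNA with the Ovation kits and read as single 50-base reads, per the labels' protocols. Counts were fitted in edgeR 4.0.16 (R 4.3.3) with TMM scaling, filterByExpr and a robust quasi-likelihood test over all 16 libraries and 12952 genes, with Benjamini-Hochberg adjustment, two-sided at 0.05, in 6 comparisons; the script was tested on simulated data. CPM uses the TMM-scaled library sizes. Complex sums and medians have no test. DESeq2 1.42.0, limma 3.58.1 (voom), other scaling and filters, a replicate block, the 2 groups alone and leaving out single libraries were alternatives. Same-numbered libraries were compared over the 4746 genes above 5 in mean log2-CPM: every correlation of deviations was over 0.1 for miR-27a and control (0.198 to 0.611), miR-24 and miR-23a (0.350 to 0.671) and miR-27a and miR-23a (0.257 to 0.655), so the numbers were taken to pair these. For miR-27a and control the lowest was 0.0607 over all genes tested. Symbols were matched to GENCODE M21 for 3′ UTRs and to gene lengths, for 77 of 77 members. Named members are those called, the highest and lowest of each complex, core subunits and isoform pairs. Ndufa3, Ndufs4 and Atp5f1 had been named before the test. The others, among them Ndufa11, Ndufa13, Cox7a2, Atp5o, Atp5l and Atp5s, were chosen after their values were seen. Members and lists were chosen with earlier results of these data known.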

Additional observations from a re-analysis of the deposited data

Results flagged for a closer look

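Among 148 groups of 4 libraries looked at, 5 held a value far from the other 3; chance gives about 1 in 20. Ndufb7 had 40.5 CPM in miR-23a replicate 1 against 10.9 to 14.3 CPM in the other miR-23a libraries, and Ndufa4 had 61.6 CPM there against 42.4 to 44.6 CPM. Uqcrb had 21.9 CPM in miR-24 replicate 1 against 12.7 to 12.9 CPM. Cox4nb had 24.7 CPM in control replicate 3 against 31.7 to 32.6 CPM. The summed level of complex V was 3009 CPM in miR-23a replicate 4 against 2096 to 2220 CPM in the other miR-23a libraries, and Atp5b was highest in that library.

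The effects of the mimics differed from each other by edgeR's quasi-likelihood test for 4 members. Relative to miR-23a, the log2 fold change with miR-24 was 2.39 for Ndufa3, 1.25 for Ndufs4, 0.96 for Uqcrfs1 and 1.91 for Atp5f1, and with miR-27a it was 1.91 for Ndufa3 and 1.64 for Atp5f1.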

How the results depend on the processing

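Beside the main 3, 0, 0, 4, 2 and 0 members called (miR-23a, miR-24 and miR-27a against control, miR-24 and miR-27a against miR-23a, miR-27a against miR-24), other settings gave these counts. For miR-23a against control, the 2 groups alone called 0, and leaving out single libraries 1 to 3 (1, Atp5f1, without control replicate 3 or miR-23a replicate 3). With the replicate block, miR-24 against control gave 1 (Uqcr11), where that fit called 4.56% of all genes in either direction. The block gave 1 (Cox7a2) for miR-27a against control, beside 3.07% of all genes. It gave 5 for miR-27a against miR-23a (2.95% of all genes) and 1 for miR-27a against miR-24 (4.42%). The block changed no other count by over 1.5 times. For miR-27a against miR-23a, DESeq2 called 4, limma 7, and leaving out single libraries 1 to 2 (1, Atp5f1, without miR-23a replicate 3 or miR-27a replicate 3). The shares of all genes called in these fits were not computed, so these counts have no background beside them. For miR-27a against miR-24, DESeq2 called 1 and limma 6, where they called 2.29% and 7.79% of all genes in either direction. In the 15 alternatives against control with miR-23a, Atp5f1 was called in 14, Ndufa3 in 12 (not in the 2 groups alone or without control replicate 3 or miR-23a replicate 3; adjusted p up to 0.0927) and Ndufs4 in 7.

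Fold changes near 0 that were never called changed sign. For miR-24 against control these were Atp5f1 (DESeq2 0.032, RLE scaling 0.042, replicate block 0.058, limma 0.096, single libraries left out -0.178 to 0.222), Ndufs4 (DESeq2 0.051, RLE 0.068, no filter 0.0086, 2 groups alone 0.0062, single libraries left out -0.073 to 0.127), Sdha (DESeq2 0.036, RLE 0.065, no filter 0.013, 2 groups alone 0.0013, single libraries left out -0.071 to 0.070) and Sdhd (single libraries left out -0.023 to 0.586). For miR-27a against control they were Cox4nb (replicate block -0.052, single libraries left out -0.023 to 0.306) and Uqcrb (single libraries left out -0.541 to 0.013). The cause was not tested. The depth of control replicate 1 limits all values of low members there.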
